A study of Arabidopsis thaliana with 40 samples.

Results

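The plasma membrane intrinsic proteins (PIPs) are the aquaporins, or water channels, of the plant cell's outer membrane. The 10 genes described here were chosen by locus identifier from the 27416 genes of the count table. Each is called by its RefSeq symbol. The PIP1 subfamily is PIP1A (PIP1;1, AT3G61430), PIP1B (PIP1;2, AT2G45960), PIP1C (PIP1;3, AT1G01620), PIP1;4 (AT4G00430) and PIP1;5 (AT4G23400). The PIP2 subfamily is PIP2A (PIP2;1, AT3G53420), PIP2B (PIP2;2, AT2G37170), RD28 (PIP2;3, AT2G37180), PIP2E (PIP2;6, AT2G39010) and PIP3 (PIP2;7, AT4G35100). All 10 were among the 16579 genes with enough reads to be tested.

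RNA came from shoots of Arabidopsis thaliana, in 40 Lasy-Seq libraries (a multiplexed RNA-seq method), 8 per group. Plants grew at 22 °C with 16 h of light. The start group was sampled at 14 days of age, before any treatment. The water group had spent 6 more days with the pot bottom in plain water, and the ethanol group the same days in 20 mM ethanol. The water-frozen and ethanol-frozen groups followed these pretreatments with a night at -4 °C. Their labels carry a time of 2 h, and what it counts is not stated. The labels name no genotype and do not say whether replicates were separate plants or pots, so the p-values cover the spread between libraries, which may be technical.

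PIP proteins assemble in groups of 4 in the plasma membrane and let water pass along osmotic gradients. PIP2 proteins conduct water well on their own, whereas PIP1 proteins often reach the membrane only together with PIP2 partners, and some PIPs also pass carbon dioxide or hydrogen peroxide. In leaves they set much of the ease with which water moves from the veins into the mesophyll, and phosphorylation, traffic to the membrane and transcript level all tune their activity.

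PIP2B and RD28 are the closest pair of the family, and stretches of them are shown because reads of such near copies can be counted for the wrong gene. In RefSeq's annotation of TAIR10.1 they lie head to head on chromosome 2, PIP2B at chr2:15613368-15615022 on the minus strand and RD28 at chr2:15617635-15619155 on the plus strand, with 2612 bases and no annotated gene between them. Their coding sequences are 858 bases each and differ at 45 bases (94.8% identity), and the longest run without a difference is 242 bases. The 60 coding bases with the most differences, 10, run from coding base 414 to 473 and are printed with the differing bases in capitals.
PIP2B: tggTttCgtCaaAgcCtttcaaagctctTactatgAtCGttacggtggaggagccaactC
RD28: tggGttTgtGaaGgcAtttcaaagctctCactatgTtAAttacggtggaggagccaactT
Of the 50-base windows of its longest transcript, 19.6% in PIP2B and 21.7% in RD28 also occur in the other gene. None of the other 8 members shared such a window with another member. Coding identity was 79.8 to 87.6% within the PIP1 subfamily, 72.0 to 94.8% within PIP2 and 70.5 to 76.1% between them.

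The sequences before the annotated starts of this pair are shown because both genes fell together while RD28 fell further. In a gapped alignment of the 250 bases before each start, 56.3% of aligned bases were identical. The PIP2B window is chr2:15615023-15615272 on the minus strand and the RD28 window chr2:15617385-15617634 on the plus strand.
PIP2B: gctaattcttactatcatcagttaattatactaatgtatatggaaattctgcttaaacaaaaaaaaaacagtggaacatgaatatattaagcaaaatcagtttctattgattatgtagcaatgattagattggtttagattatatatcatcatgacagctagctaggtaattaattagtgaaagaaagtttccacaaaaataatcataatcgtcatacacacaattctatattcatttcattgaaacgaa
RD28: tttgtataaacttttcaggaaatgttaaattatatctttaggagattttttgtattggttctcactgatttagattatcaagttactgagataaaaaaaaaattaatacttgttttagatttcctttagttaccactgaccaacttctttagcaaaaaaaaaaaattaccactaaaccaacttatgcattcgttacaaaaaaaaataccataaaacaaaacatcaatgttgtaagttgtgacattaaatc
Searched on both strands, neither window holds the core of the CRT/DRE element (CCGAC), the core of the ABRE and G-box (ACGTG) or the evening element (AAAATATCT), so no base is in capitals. CCGAC was found in the window of 1 of 10 members, PIP1C, and in 11.9% of 26709 such windows, those of the protein-coding genes of the count table. ACGTG and AAAATATCT were found in none of the 10 and in 23.1% and 2.40% of all windows.

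Library totals ran from 2098593 to 9211896 counts. Levels are given as CPM, counts scaled to a common library total with the TMM factors of edgeR. A total of 3 counts, the limit that a count of 0 allows, equals 0.311 to 1.52 CPM, and the lowest member count in any library was 16, for RD28. These limits cover counting error only. Most markers went with the shoot label. Summed, 5 leaf photosynthesis genes had 47367 to 74269 CPM over the libraries, and 7 of 8 root genes averaged under 1 CPM in every group. The other root gene, PYK10, averaged 94.1 CPM at the start and 30.6 to 36.6 CPM in the later groups. The PIPs outside the 10 were low. PIP2;4 averaged 1.57 to 3.21 CPM over the groups, PIP2;5 17.8 to 24.0 and PIP2;8 20.0 to 29.9. In bulk samples, fewer cells of a type and less RNA per cell cannot be told apart.

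The family as a whole was most abundant at the start. The summed CPM of the 10 members was 4438 at the lowest, 4575 at the median and 4688 at the highest in the start group, and 2773, 3477 and 3817 in the water group. In the ethanol group it was 2740, 2954 and 3125, in the water-frozen group 2541, 2975 and 3068, and in the ethanol-frozen group 2206, 2671 and 2917. Every start library lay above every library of the other 4 groups, while the ranges of those 4 overlapped. The lowest water sum, 2773 CPM, was that of water replicate 6. The other water libraries lay above every ethanol, water-frozen and ethanol-frozen library. The mean sum was 24.7% lower in the water group than at the start and 35.4% lower in the ethanol group. As a share of all counts the family held 0.437 ± 0.0106% (SD, n = 8) at the start and 0.277 ± 0.0199% in the ethanol-frozen group.

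Levels were compared between members as CPM per kb of the longest annotated transcript. At the start PIP2A, a channel of veins and guard cells that is regulated by phosphorylation, stood highest at 751 ± 33.8 CPM per kb (SD, n = 8). PIP1B, a main contributor to the water permeability of Arabidopsis roots and leaves, followed at 720 ± 33.6 CPM per kb. These 2 did not separate, with PIP2A above PIP1B in 5 of 8 libraries. PIP3, whose delivery to the membrane involves the syntaxins SYP121 and SYP61, came next at 402 ± 32.8 CPM per kb, apart from both neighbours. PIP1C (222.2 ± 14.4 CPM per kb), PIP1A (201.97 ± 9.12), PIP1;4 (175 ± 10.2), PIP2B (138 ± 26.5) and PIP1;5 (127 ± 11.4) followed, each overlapping the next. Within libraries PIP1C was above PIP1A, and PIP1A above PIP1;4, in 8 of 8. PIP1;4 was above PIP2B in 7 of 8 and PIP2B above PIP1;5 in 5 of 8. PIP2E (102 ± 3.26 CPM per kb) lay below PIP1;5 without overlap. RD28 (78.0 ± 12.1) was lowest, below PIP2E in 8 of 8 libraries, though their ranges overlapped.

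The order was different after 6 days. PIP1B was above PIP2A in 7 of 8 water libraries, 8 of 8 ethanol libraries, 5 of 8 water-frozen libraries and 8 of 8 ethanol-frozen libraries. Their ranges were apart in the ethanol group alone, at 461 ± 23.9 and 383 ± 22.7 CPM per kb. RD28 was last in all 5 groups, and in the 4 later groups its range lay wholly below that of PIP2B. PIP2E ranked 9 of 10 at the start and 5 of 10 in the water group, at 154 ± 21.1 CPM per kb, where it did not separate from PIP1;5 at 152 ± 23.5. These levels assume reads spread over the whole transcript, which the sources used here do not state. The order depends on that scale. By CPM not divided by length, PIP2A was above PIP1B in 7 of 8 start libraries and 6 of 8 water-frozen libraries, with overlapping ranges. PIP1B remained first in the water, ethanol and ethanol-frozen groups. PIP2E then ranked 7 of 10 at the start and 4 of 10 in the water group.

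**Figure D1:**
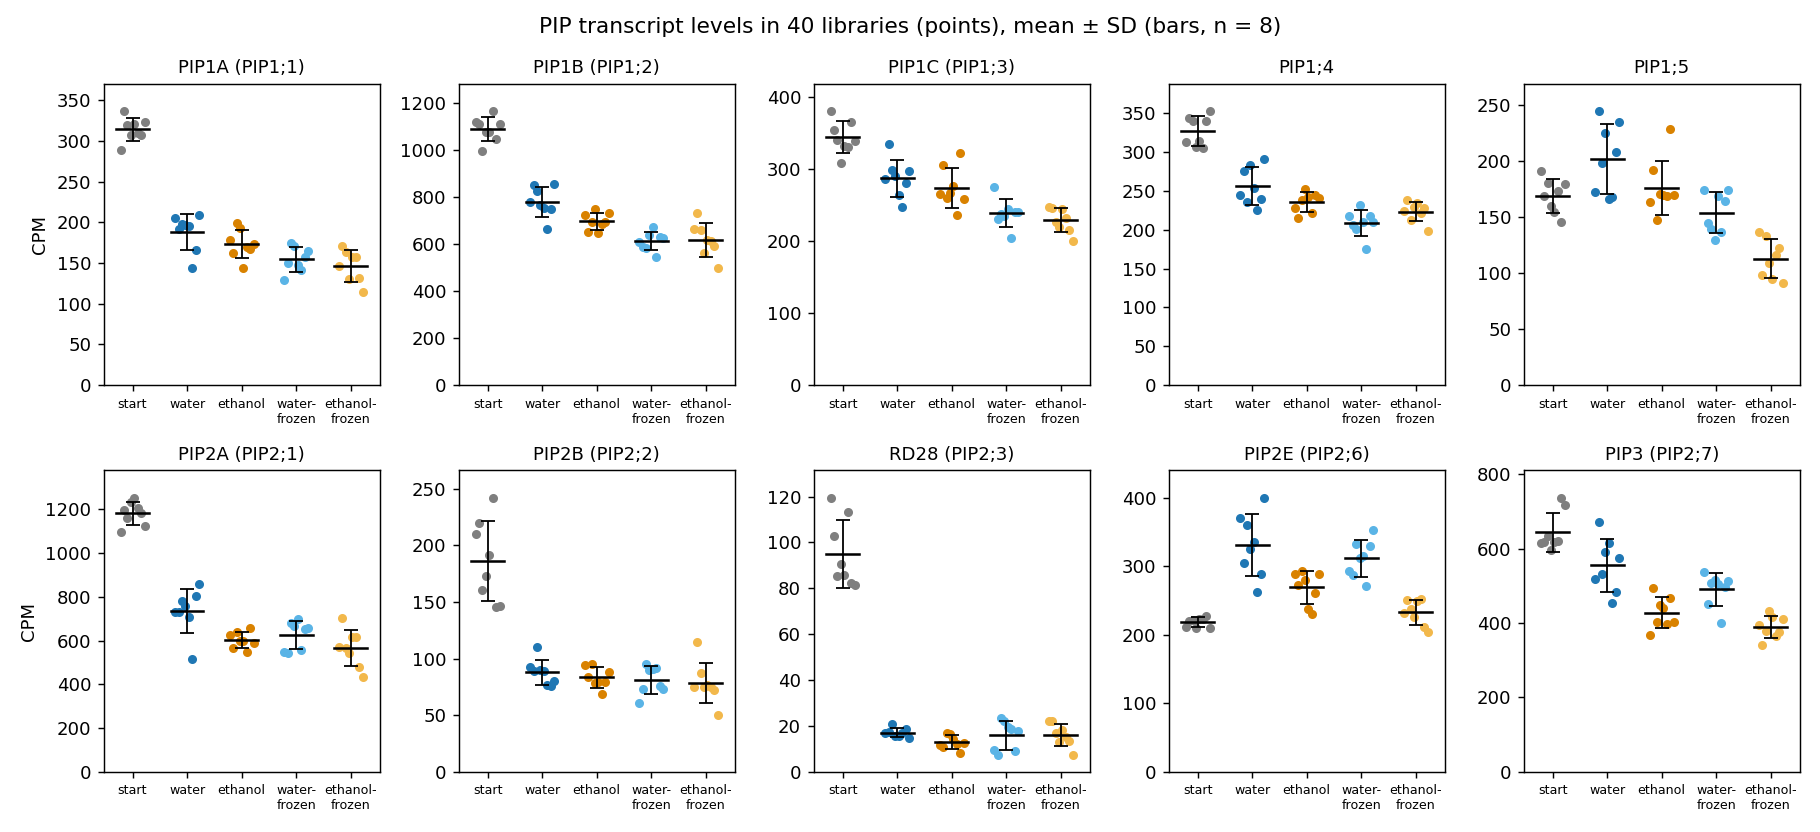
CPM of each of the 10 PIP genes (vertical axes, linear from 0, own scale per panel) in the 5 groups (horizontal axis). Points are libraries and bars the mean ± SD of 8. RD28 (PIP2;3) stands between 81.6 and 119 CPM at the start and at or under 23.5 CPM in all later libraries.

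The water group against the start group covered the 6 days of pretreatment, and all 10 members differed. PIP1A, PIP1B, PIP1C, PIP1;4, PIP2A, PIP2B, RD28 and PIP3 fell, and PIP1;5 and PIP2E rose. Of all tested genes 24.5% were called, 12.5% lower and 12.0% higher, where a call is an adjusted p under 0.05 in edgeR's quasi-likelihood test with Benjamini-Hochberg adjustment. The members' median log2 fold change was -0.42, against -0.0097 for all tested genes. Group ranges were apart for 7 of 10 members and for 8.56% of all tested genes.

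RD28, named for its response to desiccation, fell the most of the 10. It had 81.6, 88.2 and 119.5 CPM at the lowest, median and highest in the start group and 14.8, 17.0 and 20.8 in the water group. The lowest start library was far above the highest water library. The log2 fold change was -2.47 ± 0.17 (SE, edgeR adjusted p = 4.21e-18), a 5.55-fold lower level. PIP2B, which contributes to water transport in roots, had 146, 182 and 242 CPM at the start and 75.7, 89.1 and 111 in the water group. Its ranges did not overlap either, and its log2 fold change was -1.08 ± 0.11 (edgeR adjusted p = 7.48e-12), a 2.11-fold lower level.

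The counts of RD28 fell relative to those of PIP2B. At the start the ratio of RD28 to PIP2B counts was 0.516 ± 0.0482 (SD, n = 8), with a range of 0.448 to 0.5678. In the water group it was 0.196 ± 0.0252, with a range of 0.173 to 0.245, and the ranges were apart. The log2 ratio differed by -1.40 ± 0.079 (SE), with a two-sided exact permutation p of 0.000155, the smallest that 8 against 8 libraries can give, and an adjusted p of 0.000466 over 6 comparisons. How reads from the stretches that both genes share were counted is not stated, and their part in the ratio was not tested. With the counts of both genes summed into 1 feature, the sum fell by 1.42 ± 0.11 on the log2 scale (edgeR adjusted p = 9.23e-16).

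The most abundant members fell as well. PIP2A had 1096, 1189 and 1252 CPM at the lowest, median and highest at the start and 515, 743 and 857 in the water group. The ranges were apart and the log2 fold change was -0.69 ± 0.074 (SE, edgeR adjusted p = 6.40e-11). PIP1B went from 996, 1092 and 1164 CPM to 663, 771 and 855, again without overlap, with a log2 fold change of -0.48 ± 0.057 (edgeR adjusted p = 8.61e-10).

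Of the remaining members that fell, PIP1A, among the first plasma membrane aquaporins described in plants, had a log2 fold change of -0.74 ± 0.074 and PIP1;4, which can pass hydrogen peroxide, one of -0.35 ± 0.057, both with ranges apart. PIP1C (-0.26 ± 0.062) and PIP3 (-0.22 ± 0.068) fell with overlapping ranges. The call of PIP3 (edgeR adjusted p = 0.0134) was lost without start replicate 7 or 8 or water replicate 1, 6 or 7, at log2 fold changes of -0.19 to -0.16 and adjusted p of 0.0551 to 0.0840.

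PIP2E and PIP1;5 went the other way. PIP2E, a channel of leaf veins, had 209.4, 221.04 and 227.4 CPM at the lowest, median and highest at the start and 262, 331 and 400.3 in the water group. All water libraries were above all start libraries, and the log2 fold change was 0.60 ± 0.067 (edgeR adjusted p = 1.48e-10). PIP1;5 had 145, 171 and 191 CPM at the start and 166, 203.3 and 245 in the water group, with ranges that overlapped. It rose by 0.26 ± 0.088 on the log2 scale (edgeR adjusted p = 0.0248), and without water replicate 2 the call was lost at 0.23 (adjusted p = 0.0555).

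Plants of the water group were both older and watered from below, and the parts of age and watering in this comparison cannot be told apart. Of 4 epidermis markers (ATML1, PDF1, CER6 and FDH) 3 fell over the same days, with sums of 684 to 820 CPM at the start and 504 to 675 in the water group. The root gene PYK10 fell by 1.61 ± 0.25 on the log2 scale, and the 8 root genes summed to 65.0 to 125 CPM at the start and 20.7 to 45.7 in the water group, with 3 of them at 0 throughout each group. Sums of 3 xylem markers were 58.3 to 75.4 CPM at the start and 48.6 to 68.7 in the water group, and none of the 3 was called. Sums of 3 phloem markers were 230.99 to 265 and 228.1 to 284, with APL lower (-0.38 ± 0.14). Of 5 photosynthesis markers RCA (-0.70 ± 0.050, ranges apart) and LHCB1.1 (-0.26 ± 0.055) fell and PSAD1 rose (0.30 ± 0.049), with sums of 64862 to 74269 CPM at the start and 59901 to 69780 in the water group. None of 5 guard cell or 2 bundle sheath markers was called. The part of these cell types in the PIP results was not tested.

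Ethanol against start used the same start libraries, so its values stand beside those above and are not independent of them. Here 8 members fell and 1, PIP2E, rose, with 32.0% of all tested genes called, 16.6% lower and 15.4% higher. RD28 had 8.09, 12.3 and 17.1 CPM at the lowest, median and highest in the ethanol group, 7.26-fold lower than at the start (log2 fold change -2.86 ± 0.17). PIP2B fell by 1.16 ± 0.11, PIP2A by 0.97 ± 0.075, PIP1A by 0.86 ± 0.074, PIP1B by 0.64 ± 0.057, PIP3 by 0.59 ± 0.068, PIP1;4 by 0.48 ± 0.057 and PIP1C by 0.33 ± 0.062 on the log2 scale. PIP2E rose by 0.30 ± 0.067, and PIP1;5 stood at 0.06 ± 0.089 and did not pass (edgeR adjusted p = 0.691). Ranges were apart for 8 members and for 12.2% of all tested genes. Markers moved in this comparison too. Of 4 epidermis markers 3 fell, with sums of 552 to 620.5 CPM in the ethanol group, and of 5 photosynthesis markers 3 fell and 1 rose, with sums of 54414 to 65094. Of 3 phloem markers SUC2 and PP2-A1 rose and APL fell, and of 5 guard cell markers SLAC1 (1.01 ± 0.22) and GC1 (0.34 ± 0.13) rose, with sums of 98.9 to 168 CPM at the start and 126 to 191 in the ethanol group. Of 2 bundle sheath markers SCL23 rose (1.01 ± 0.20). The xylem marker XCP1 (-0.60 ± 0.17) and the root gene PYK10 (-1.37 ± 0.25) fell. Their part in the PIP results was not tested.

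Ethanol against water addressed the pretreatment itself before freezing. PIP2A, PIP2E and PIP3, all of the PIP2 subfamily, were lower in the ethanol group and no member was higher. Of all tested genes 10.0% were called, 6.00% lower and 4.04% higher. The log2 fold changes of the 10 members ran from -0.39 to -0.07 with a median of -0.18, against 0.0089 for all tested genes. No member had ranges apart, against 1.75% of all tested genes.

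PIP3 had 454, 555 and 672 CPM at the lowest, median and highest in the water group and 368, 422 and 493.1 in the ethanol group. The upper ethanol libraries overlapped the lower water libraries, and the log2 fold change was -0.38 ± 0.068 (SE, edgeR adjusted p = 5.61e-05). PIP2E had 231.1, 276.5 and 294 CPM in the ethanol group, with a log2 fold change of -0.30 ± 0.067 against water (edgeR adjusted p = 0.00121). PIP2A had 549.6, 597 and 656 CPM in the ethanol group, with a log2 fold change of -0.29 ± 0.074 against water (edgeR adjusted p = 0.00611). Its ranges overlapped through water replicate 6 alone, at 515 CPM. The next lowest water library, at 707 CPM, lay above all ethanol libraries.

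None of the 5 PIP1 genes passed in edgeR between ethanol and water, although 3 had an unadjusted p under 0.05. DESeq2 called 4 members, and 1715 of the 17814 genes to which it gave an adjusted p. PIP1B stood at -0.16 ± 0.057 (edgeR adjusted p = 0.0588) and passed at -0.20 without water replicate 6 (adjusted p = 0.0173). It also passed with the transcript length trend of all genes removed (-0.18, edgeR adjusted p = 0.0350). PIP1;5 stood at -0.20 ± 0.088 (edgeR adjusted p = 0.154) and passed at -0.26 without ethanol replicate 7 (adjusted p = 0.0450). These 2 libraries had the lowest mean correlation with the rest of their groups (0.927 each). With both left out 5 members were called, where 1690 of 16662 tested genes were. RD28, at -0.39 ± 0.18, did not pass (edgeR adjusted p = 0.189).

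The ratio of RD28 to PIP2B counts was 0.155 ± 0.0372 (SD, n = 8) in the ethanol group. It was lower than in the water group by 0.36 ± 0.14 on the log2 scale, with an exact permutation p of 0.0228 and an adjusted p of 0.0429. That call was lost without water replicate 6 or 7 or ethanol replicate 1, 2, 7 or 8, at differences of -0.35 to -0.28 and exact permutation p, adjusted, of 0.0676 to 0.0685. Of 3 phloem markers 2 were higher in the ethanol group, with sums of 228.1 to 284 CPM in the water group and 243 to 319 in the ethanol group. The guard cell marker SLAC1 was higher (0.99 ± 0.22, ranges apart), and the xylem marker XCP1 (-0.52 ± 0.17) and the photosynthesis gene RBCS1A (-0.19 ± 0.047) were lower. None of the epidermis, bundle sheath or root markers was called, and the part of these markers in the PIP results was not tested.

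**Figure D2:**
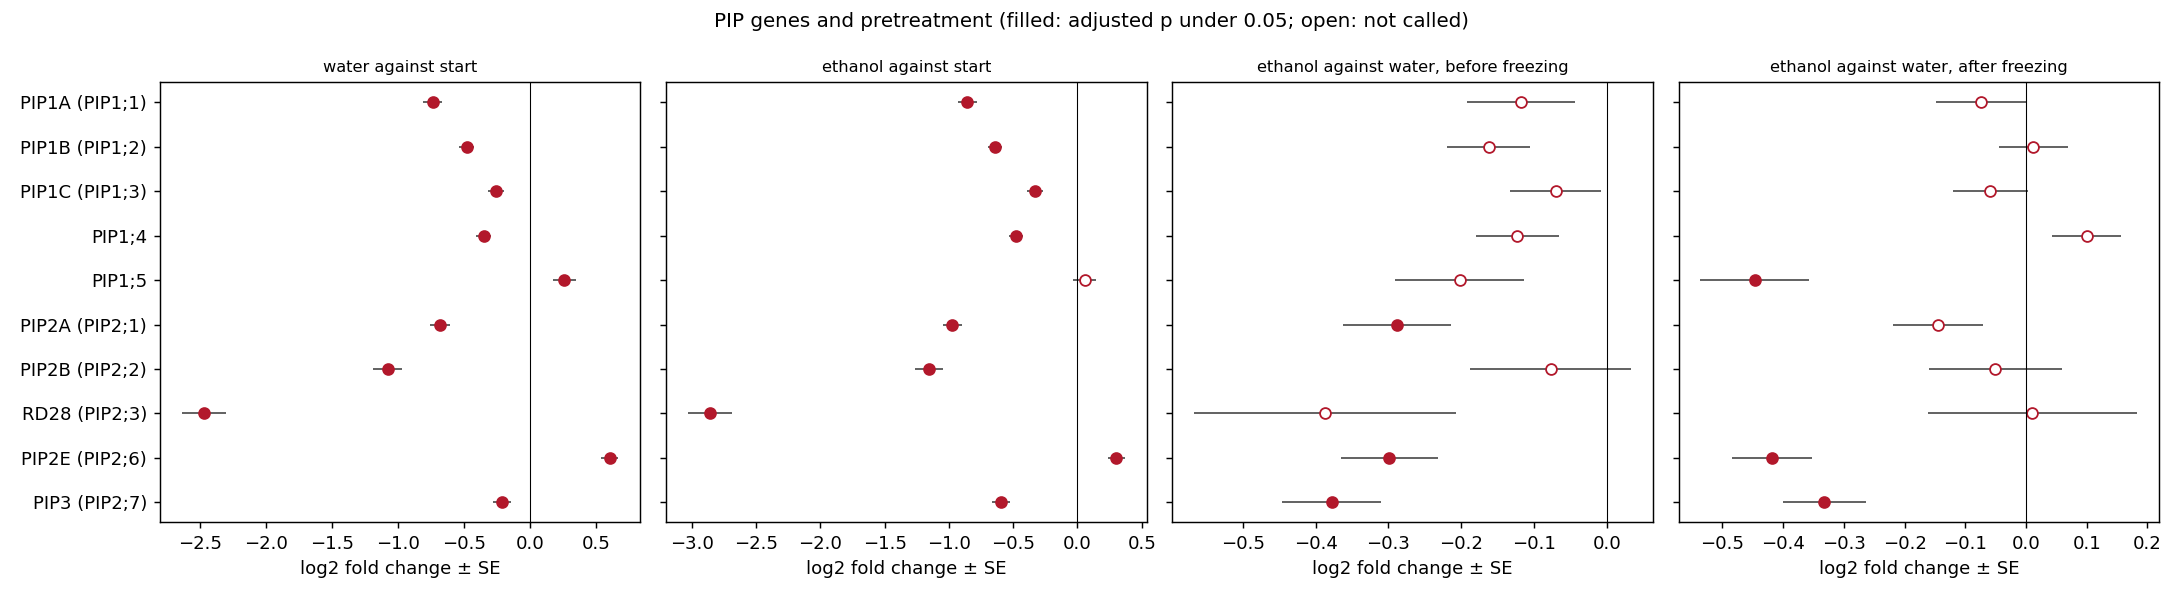
Log2 fold change ± SE (horizontal axes, own scale per panel) of each PIP gene for water and ethanol against start and for ethanol against water before and after freezing. Filled points had an edgeR adjusted p under 0.05 and open points did not. Filled points below 0 number 8 in both panels against start, 3 for ethanol against water before freezing and 3 after it.

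Freezing after plain water compared the water-frozen and water groups. No pretreated group was kept unfrozen over the added night. In both freezing comparisons the parts of cold, the added night and the hour of harvest, which is not given, cannot be told apart. All 5 PIP1 genes and PIP2A were lower after freezing and no member was higher. Of all tested genes 14.0% were called, 6.97% lower and 7.00% higher. The members ran from -0.39 to -0.09 on the log2 scale with a median of -0.25, against 0.0031 for all tested genes. The ranges of all 10 members overlapped, while those of 1.94% of all tested genes did not. For PIP1B, PIP1;4 and PIP2A the overlap came from water replicate 6 alone. The share of all tested genes without that library was not taken.

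PIP1B had 663, 771 and 855 CPM at the lowest, median and highest before freezing and 546, 616 and 671 after it. Only the ends of the ranges met, and the log2 fold change was -0.35 ± 0.057 (SE, edgeR adjusted p = 1.45e-05). PIP1;5 went from 166, 203.3 and 245 to 129, 155 and 174 CPM, with a log2 fold change of -0.39 ± 0.089 (edgeR adjusted p = 0.00139). PIP1;4 fell by 0.30 ± 0.057, PIP1A by 0.29 ± 0.075 and PIP1C by 0.27 ± 0.062 on the log2 scale.

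Of the 5 PIP2 genes PIP2A alone was called, and PIP2A and PIP3 were near the threshold. PIP2A fell by 0.23 ± 0.074 on the log2 scale (edgeR adjusted p = 0.0263), and the call was lost without water replicate 8 or water-frozen replicate 1 or 6, at -0.22 to -0.21 (adjusted p = 0.0565 to 0.0687). PIP3 stood at -0.18 ± 0.068 (edgeR adjusted p = 0.0681) and passed without water replicate 6 or 7 or water-frozen replicate 1, at -0.23 to -0.21 (adjusted p = 0.0175 to 0.0495). PIP2B (-0.11 ± 0.11), RD28 (-0.09 ± 0.18) and PIP2E (-0.09 ± 0.066) did not pass.

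On freezing, the log2 fold changes of all genes moved with transcript length. After water their median was -0.22 for the 2145 tested genes with transcripts under 1000 bases, -0.07 for the 8196 with 1000 to under 2000 bases, and 0.43 for the 1889 with 3000 bases or more. After ethanol these medians were -0.15, -0.05 and 0.32. The longest transcripts of the PIP genes have 1220 to 2148 bases. After removal of this trend library by library, edgeR called 346 of 16579 tested genes after water. Of the members PIP1B (-0.29, edgeR adjusted p = 0.00266) and PIP1;4 (-0.33, adjusted p = 0.000803) fell. The calls of PIP1A (-0.23, adjusted p = 0.115), PIP1C (-0.22, adjusted p = 0.0893), PIP1;5 (-0.28, adjusted p = 0.0898) and PIP2A (-0.19, adjusted p = 0.268) were lost. PIP2E, the longest at 2148 bases, moved away from 0, to -0.21 (edgeR adjusted p = 0.138). Of the 5 photosynthesis markers 3 fell on freezing after water, with sums of 59901 to 69780 CPM before and 50802 to 58512 after. The epidermis markers ATML1 (0.61 ± 0.11) and CER6 (0.33 ± 0.073) and the guard cell marker KAT1 (0.96 ± 0.21) rose, and the xylem marker XCP2 fell (-0.38 ± 0.098). No phloem, bundle sheath or root marker was called, and the part of these markers in the PIP results was not tested.

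Freezing after ethanol compared the ethanol-frozen and ethanol groups. PIP1A, PIP1B, PIP1C, PIP1;5 and PIP2E fell and no member rose, where 9.79% of all tested genes were called, 5.68% lower and 4.11% higher. PIP1;5 had 147, 169.6 and 228.7 CPM at the lowest, median and highest before freezing and 91.6, 112.5 and 137 after it. It was the 1 member with ranges apart, against 2.14% of all tested genes, with a log2 fold change of -0.64 ± 0.089 (SE, edgeR adjusted p = 7.14e-07). PIP1C fell by 0.26 ± 0.062 on the log2 scale (edgeR adjusted p = 0.00358). With the length trend removed PIP1;5 (-0.54, adjusted p = 4.18e-05) and PIP2E (-0.30, adjusted p = 0.00620) fell, where edgeR called 694 of 16579 tested genes. The calls of PIP1A (-0.19, adjusted p = 0.182), PIP1B (-0.12, adjusted p = 0.354) and PIP1C (-0.21, adjusted p = 0.0724) were lost. Of the 5 photosynthesis markers 3 fell, with sums of 54414 to 65094 CPM before and 47367 to 57020 after. The xylem marker XCP2 fell (-0.32 ± 0.097), the epidermis marker ATML1 rose (0.49 ± 0.11), and the part of these markers in the PIP results was not tested.

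The other 3 calls after ethanol were near the threshold. PIP2E had 204.8, 234.8 and 252 CPM in the ethanol-frozen group (-0.21 ± 0.067, edgeR adjusted p = 0.0355). Its call was lost without ethanol replicate 1, 2, 3, 4 or 8 or ethanol-frozen replicate 1, 4, 7 or 8, at -0.21 to -0.18 (adjusted p = 0.0544 to 0.102). PIP1A (-0.24 ± 0.074, edgeR adjusted p = 0.0272) lost its call without ethanol replicate 1, 3 or 4 or ethanol-frozen replicate 4, 7 or 8, at -0.24 to -0.20 (adjusted p = 0.05002 to 0.1002). PIP1B (-0.18 ± 0.057, edgeR adjusted p = 0.0379) lost it without ethanol replicate 1, 3, 4, 7 or 8 or ethanol-frozen replicate 4, 5, 6, 7 or 8, at -0.18 to -0.13 (adjusted p = 0.0526 to 0.137). The count of called members was 2 without ethanol replicate 1, 3 or 4 or ethanol-frozen replicate 4, 7 or 8, and 3 without ethanol replicate 8.

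PIP1;4 (-0.07 ± 0.057), PIP2A (-0.09 ± 0.074), PIP2B (-0.09 ± 0.11), RD28 (0.31 ± 0.18) and PIP3 (-0.13 ± 0.068) did not pass after ethanol. RD28 was the 1 member with a value above 0, with 7.47, 16.0 and 22.2 CPM at the lowest, median and highest after freezing (edgeR adjusted p = 0.308). The ratio of RD28 to PIP2B counts was 0.203 ± 0.045 (SD, n = 8) there, higher than before freezing by 0.40 ± 0.17 on the log2 scale (exact permutation p = 0.0286, adjusted p = 0.0429). That call was lost without ethanol replicate 1, 2, 7 or 8 or ethanol-frozen replicate 1, 2, 3, 5, 6 or 7, at differences of 0.32 to 0.41 and exact permutation p, adjusted, of 0.0508 to 0.0858. After plain water the log2 ratio differed by -0.09 ± 0.19 (exact permutation p = 0.631).

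**Figure D3:**
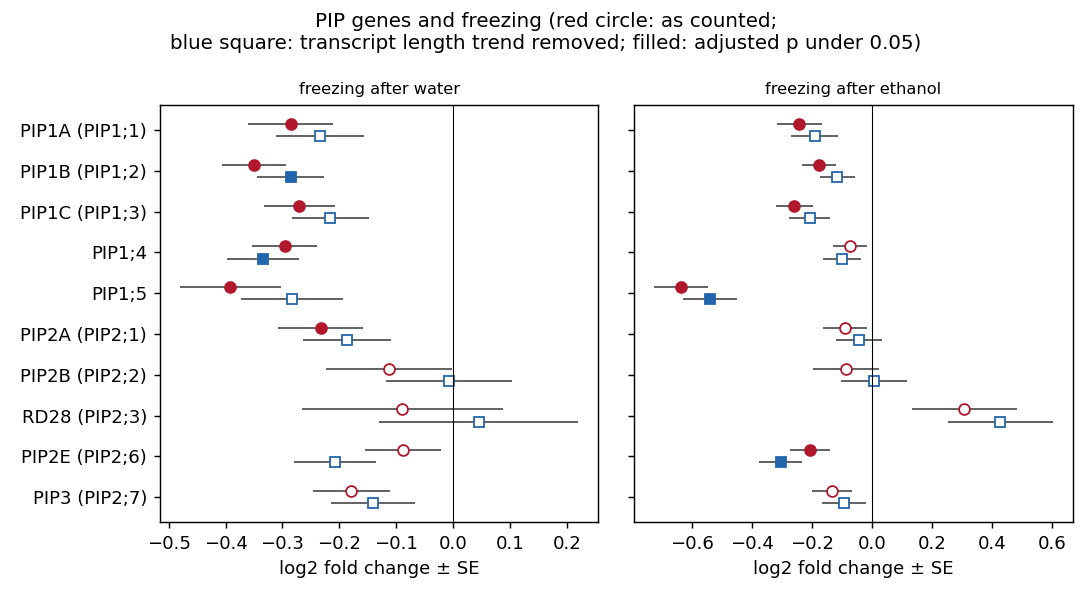
Log2 fold change ± SE (horizontal axes, own scale per panel) of each PIP gene on freezing after water and after ethanol. Red circles are edgeR values with the trend with transcript length left in, and blue squares are values after its removal. Filled symbols had an edgeR adjusted p under 0.05. After water 6 circles and 2 squares are filled, and after ethanol 5 and 2.

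The difference between both freezing effects was tested in the same model, and edgeR called 0 of 10 members. DESeq2 called 0 as well, and 2 members had an unadjusted p under 0.05, PIP1B (0.17 ± 0.081, edgeR adjusted p = 0.560) and PIP1;4 (0.22 ± 0.081, adjusted p = 0.399). Among all tested genes 0.133% were called, 0.127% lower and 0.00603% higher. PIP1;5, which fell most in both freezing comparisons with the length trend left in, had a difference of -0.24 ± 0.13 (edgeR adjusted p = 0.636). With that trend removed PIP1;4 fell most after water (-0.33), and the call of PIP1;5 (-0.28) was lost.

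Ethanol-frozen against water-frozen compared the pretreatments after freezing. PIP1;5, PIP2E and PIP3 were lower in the ethanol-frozen group and no member was higher, with 5.26% of all tested genes called, 2.83% lower and 2.42% higher. PIP2E had 272, 313.5 and 353 CPM at the lowest, median and highest in the water-frozen group and 204.8, 234.8 and 252 in the ethanol-frozen group. Its ranges were apart, as for 0.651% of all tested genes, and the log2 fold change was -0.42 ± 0.066 (SE, edgeR adjusted p = 2.32e-05). PIP1;5 had 129, 155 and 174 CPM in the water-frozen group and 91.6, 112.5 and 137 in the ethanol-frozen group (-0.45 ± 0.089, edgeR adjusted p = 0.000796). PIP3 had 400.4, 505.5 and 536 and 341, 386 and 433.5 CPM (-0.33 ± 0.068, edgeR adjusted p = 0.00117), and the ranges of both genes overlapped.

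The remaining 7 members did not pass after freezing. PIP2A stood at -0.14 ± 0.074 (edgeR adjusted p = 0.314), PIP1A at -0.07 ± 0.074, PIP1C at -0.06 ± 0.062 and PIP2B at -0.05 ± 0.11. PIP1B (0.01 ± 0.057), RD28 (0.01 ± 0.17) and PIP1;4 (0.10 ± 0.057) were above 0. With the length trend removed the same 3 were called, PIP1;5 at -0.48, PIP2E at -0.42 and PIP3 at -0.35. Of all 16579 tested genes 840 were called there. Phloem markers had sums of 214.7 to 258 CPM in the water-frozen group and 228.8 to 348 in the ethanol-frozen group, 2 of 3 being higher. SLAC1 (0.80 ± 0.22) was higher and LHCB1.1 (-0.19 ± 0.055) and the epidermis marker PDF1 (-0.24 ± 0.068) were lower, and the part of these markers in the PIP results was not tested.

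The make-up of the PIP transcript pool differed between the groups. PIP2A held 25.9 ± 1.24% (SD, n = 8) of the summed CPM at the start and 21.3 ± 1.72% in the water group. PIP2E held 4.78 ± 0.147% at the start, 9.63 ± 0.890% in the water group and 10.8 ± 0.494% in the water-frozen group. RD28 held 2.08 ± 0.309% at the start and 0.501 ± 0.0774% in the water group. The 5 PIP1 genes together held 49.1 ± 0.921% at the start, 49.9 ± 1.26% in the water group, 52.7 ± 0.908% in the ethanol group, 47.3 ± 1.42% in the water-frozen group and 50.9 ± 1.35% in the ethanol-frozen group. These shares come from the same counts as the levels and were not tested.

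**Figure D4:**
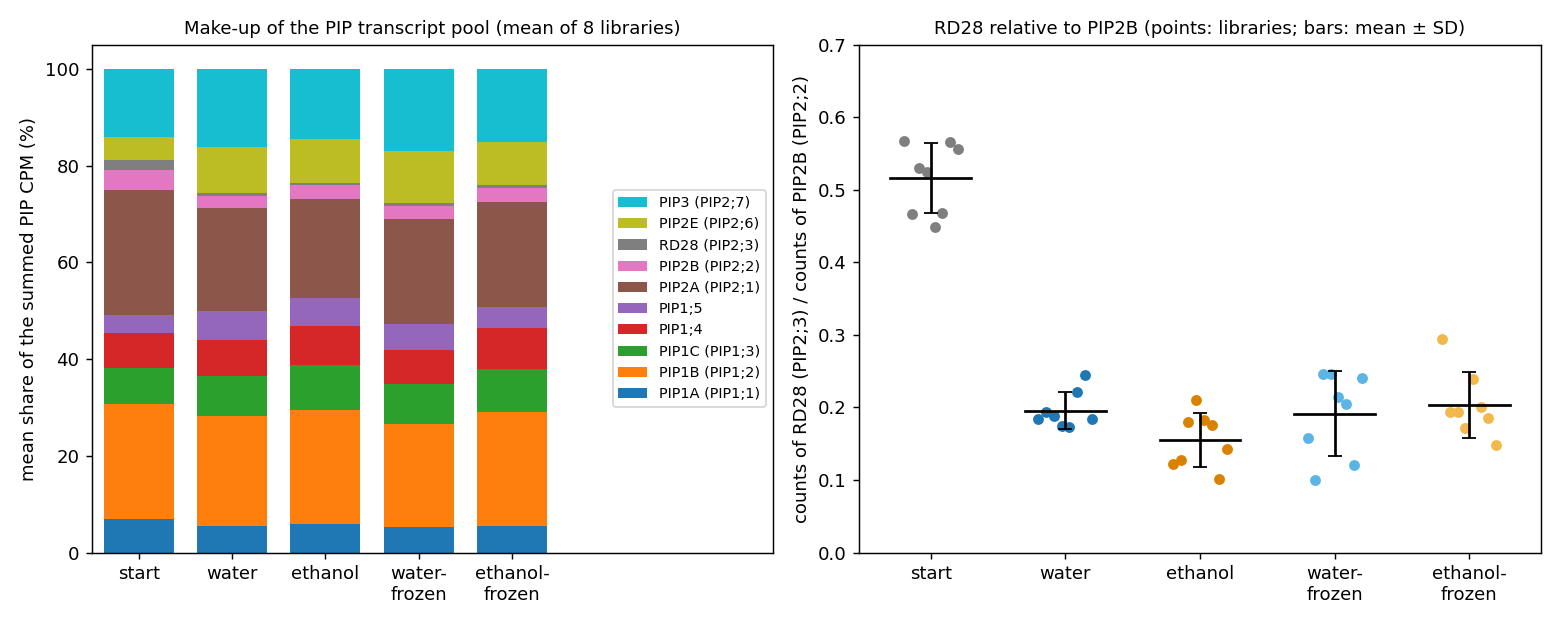
Left, mean share in percent of each PIP gene in the summed PIP CPM of each group (8 libraries). Right, counts of RD28 divided by counts of PIP2B in each library (points) with mean ± SD (bars). The 8 start libraries lie between 0.448 and 0.5678 and no later library exceeds 0.295.

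Most members varied together over the 40 libraries, with PIP2E apart, while PIP2E was not apart within groups. Over the 40 libraries, which share groups and scaling, Pearson's correlation of log2 CPM was above 0 in 38 of 45 pairs of members, with a median of 0.732. PIP1A and PIP1B were most alike (0.955), PIP2A was most like PIP1A (0.951) and PIP2B most like RD28 (0.933). The lowest value, -0.462, was between PIP2E and RD28. Values of PIP1;5 ran from 0.108 with RD28 to 0.632 with PIP1C. For deviations from the group means, 40 of 45 pairs were above 0 with a median of 0.413, and the highest value was between PIP1A and PIP2E (0.779). The same counts for pairs of other genes were not taken. PIP2E and PIP1A thus moved in opposite directions between the start and water groups and together among replicates.

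Other genes with a like pattern were ranked by their correlation over the 40 libraries with the mean of the members' standardized profiles, among 8836 genes of at least 10 CPM. The 5 highest were the Rubisco small subunit gene RBCS3B (AT5G38410, 0.944), which has near-identical copies, the vacuolar aquaporin gene TIP1;1 (AT2G36830, 0.943), AT3G12345 (0.943), the ferredoxin gene FD1 (AT1G10960, 0.937) and XTH7 (AT4G37800, 0.925), a gene for a cell wall enzyme. For RD28 alone they were AT3G48460 (0.934), the glutathione transferase gene ERD9 (AT1G10370, 0.932), CP1 (AT5G49480, 0.931), LNK3 (AT3G12320, 0.922), a gene of the clock-related LNK family, and ELIP2 (AT4G14690, 0.922), for an early light-induced protein of the chloroplast.

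Of 25 aquaporin genes outside the 10 members, 3 PIPs, 10 vacuolar TIPs, 3 SIPs and 9 NIPs, 14 were tested. In water against start 5 of the 14 fell and 1 rose, where 24.5% of all tested genes were called. NIP6;1, a boric acid channel gene, fell by 1.11 ± 0.18, TIP2;2 by 0.65 ± 0.13, PIP2;8 by 0.58 ± 0.14, PIP2;5 by 0.44 ± 0.12 and TIP1;1 by 0.27 ± 0.068 on the log2 scale, and SIP1;1 rose by 0.49 ± 0.081. In ethanol against start 7 fell and 1 rose, where 32.0% of all tested genes were called. In ethanol against water 3 were lower, TIP2;1 (-0.63 ± 0.093), TIP1;1 (-0.37 ± 0.069) and TIP1;2 (-0.21 ± 0.060), and 1 higher, NIP5;1 (0.82 ± 0.23), a further boric acid channel gene, where 10.0% of all tested genes were called. After freezing TIP2;1 (-0.64 ± 0.093) and TIP1;1 (-0.39 ± 0.069) were again lower and NIP5;1 (0.94 ± 0.23) higher with ethanol, where 5.26% of all tested genes were called.

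On freezing TIP1;1, TIP1;2, TIP2;1 and SIP1;1 fell after water and after ethanol, and no other aquaporin outside the 10 was called, where 14.0% and 9.79% of all tested genes were. TIP2;1, a channel of the vacuole membrane in shoots, had log2 fold changes of -0.52 ± 0.093 and -0.52 ± 0.093, or -0.38 and -0.40 with the length trend removed, and was called in all 4. With the trend removed SIP1;1 after water (-0.28) and TIP1;1 after ethanol (-0.24) were called too, and the other calls were lost. Of all 16579 tested genes 346 after water and 694 after ethanol were called there. PIP2;4 was called in none of the 7 comparisons.

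Of 11 genes for the traffic, phosphorylation and turnover of PIP proteins 10 were tested. In water against start 2 rose and 2 fell, in ethanol against start 3 and 2, and in ethanol against water 2 rose. The shares of all tested genes called in these comparisons were 24.5%, 32.0% and 10.0%. RMA1, a ubiquitin ligase gene of a family known to act on PIP2A, averaged 8.86 CPM at the start, 20.4 in the water group and 32.6 in the ethanol group. It rose in water against start (1.24 ± 0.16) and was higher in ethanol than in water (0.67 ± 0.14). On freezing it fell by 0.45 ± 0.15 after water and by 1.08 ± 0.14 after ethanol. VAMP711, a vesicle fusion gene, rose in water against start (0.41 ± 0.093) and was higher in ethanol than in water (0.34 ± 0.091). RMA2 (-0.71 ± 0.20) and the receptor kinase gene QSK1 (-0.54 ± 0.16) fell in water against start.

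On freezing after water QSK1 rose (0.63 ± 0.16) and RMA2 fell (-0.73 ± 0.21), which with RMA1 makes 3 of 10, where 14.0% of all tested genes were called. With the length trend removed none of the 10 was called by edgeR in that comparison, RMA1 included (-0.50, adjusted p = 0.0656). Of all 16579 tested genes 346 were called there. RMA1 alone was called on freezing after ethanol, where 9.79% of all tested genes were, and with the trend removed as well (-1.11). None was called between the frozen groups or for the difference of both freezing effects. SYP121 and SYP61 were called in none of the 7 comparisons.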

How the data were processed

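Shoot libraries, 40 in all, were grouped by their titles. The authors deposited whole-number counts per gene, not normalized. The submitters' processing notes name bcl2fastq, Trimmomatic, HISAT2, featureCounts, DESeq2 and the build TAIR10. Versions, settings, strandedness and the handling of reads that map to several places are not stated there. A deposited signal table of size-factor-scaled counts was not tested.

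Tests used edgeR 4.0.16 with R 4.3.3: TMM scaling after filterByExpr, 1 model of the 5 group means for all 40 libraries, and quasi-likelihood F tests adjusted by Benjamini-Hochberg over 16579 genes. An SE is the size of the log2 fold change over the square root of F. The RD28 to PIP2B ratio was tested by two-sided exact permutation of its log2 value. Each library counted once. No library pair of a group agreed within sampling noise (chi-square over its degrees of freedom, 3.48 to 21.0). Such spread cannot tell separate plants from several libraries made of the same plants. Transcripts and sequences are from RefSeq's TAIR10.1, which matched 26719 identifiers, all 10 members included. The deposited tables hold no coordinates. The fit was tested on simulated data.

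Members, lists and rules were chosen with earlier results of these data known. Named were all members, the other PIPs, up to 3 called genes per list and comparison (smallest p) and the 5 genes most like the family; those most like RD28 and further called list genes were chosen after their values were seen. Alternatives were RLE scaling, no filter, DESeq2 1.42.0, only the groups compared, a replicate block, single libraries left out (for the count ratio, chosen after seeing the data), water replicate 6 with ethanol replicate 7 left out, the RD28 and PIP2B counts summed, and removal of each library's transcript length trend.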

Additional observations from a re-analysis of the deposited data

Results flagged for a closer look

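PIP2A in water replicate 6 stood at 515 CPM, below the next lowest water library at 707 and the highest at 857, so that the gap to its nearest neighbour took 0.560 of the group's range. This was the 1 such value among 50 sets of a member and a group, and chance alone gives about 1 in 20. Without that library PIP2A stood at -0.61 in water against start, -0.35 in ethanol against water and -0.30 on freezing after water, each still called by edgeR (adjusted p = 1.34e-10, 0.000155 and 0.00121).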

How the results depend on the processing

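Counts of called members kept within 1.5 times the reported value except as follows. With the transcript length trend removed 2 members were called on freezing after water and 2 after ethanol, and over all tested genes 346 were called after water, 110 of them higher, in place of 2316 and 1161, and 694 after ethanol in place of 1623. For the difference of freezing effects edgeR called 22 of all tested genes, against 36 with the replicate block, 41 with no filter, 42 without water replicate 6 and ethanol replicate 7, and 46 in DESeq2. On freezing after ethanol 3 were called with no filter on low counts and 3 with only the groups compared. In ethanol against water 5 were called without water replicate 6 and ethanol replicate 7. Leaving out single libraries gave 9 to 10 calls in water and 9 in ethanol against start, 3 to 4 in ethanol against water, 5 to 7 and 2 to 5 on freezing after water and ethanol, 3 between frozen groups and 0 for the difference. Signs turned for values that were not called. With the length trend removed RD28 stood at 0.045 on freezing after water, PIP2B at 0.0079 on freezing after ethanol, and RD28 at -0.022 and PIP1B at -0.014 between frozen groups. Without single libraries RD28 ran from -0.20 to 0.013 on freezing after water and its log2 ratio to PIP2B there from -0.16 to 0.032. Between frozen groups PIP2B ran from -0.14 to 0.025, RD28 from -0.10 to 0.11 and PIP1B from -0.022 to 0.059. For the difference of freezing effects PIP1C ran from -0.016 to 0.057 and PIP2B from -0.065 to 0.12. The cause was not tested. Libraries were not treated as paired, since same-numbered deviations correlated at 0.0125 on average and over 0.1 in 2 of 80 pairs. Of 160 best matches 33 had the same number, where equal chances give 20, a hint of some sharing between same-numbered libraries. With the replicate block 10, 9, 3, 6, 5, 3 and 0 members were called in the 7 comparisons, as without it. Precision is lowest for RD28, with 16 to 163 counts per library after the start.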
